A study of Sus scrofa with 12 samples.

Results

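Genes of mitosis and chromosome segregation were followed in arterial endothelial cells (ECs) exposed to 3 levels of laminar shear stress. The group was a list of 42 gene symbols, and a gene was a member where its pig Ensembl identifier was paired with one of these symbols. Of the 42, 39 were found among the 21153 genes of the count table, of which 14572 could be given a symbol. CCNA2, AURKA and MKI67 were paired with no identifier and were not analysed here. The rule itself used no measured value, but the list was chosen with earlier results of these data known. The 39 genes lie on 18 chromosomes of the assembly Sscrofa11.1, and each position below is that of the gene in the RefSeq annotation of this assembly.

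The cells were primary ECs of 3 pigs, 8 months old per the methods, and the labels name no treatment of them other than shear stress. Each donor gave 4 cultures, which were kept under flow for 48 h: 1 at 2 dyne/cm2 (low), 1 at 80 dyne/cm2 (supra-high) and 2 at 30 dyne/cm2 (physiological), here called set 1 and set 2. A condition therefore has 3 libraries, 1 per donor, numbered 1 to 3. The low condition was compared with set 1 and the supra-high condition with set 2, a pairing that the labels do not state. The labels call the cells aortic and the methods name coronary arteries. The design text puts the supra-high cultures and the matching controls on another flow slide, seeded more densely, than the low ones and theirs, whereas the methods describe a single slide type. Between the 2 sets at 30 dyne/cm2, slide, seeding density and experiment cannot be told apart.

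Mitosis separates the copied chromosomes into 2 daughter cells. Its genes are transcribed in late S phase, G2 and M, mostly under the control of the MuvB complex with B-MYB and FOXM1, and they are silenced in resting cells, where MuvB joins p130 (RBL2) and an E2F protein to form the DREAM repressor. CDK1 with cyclin B starts mitosis, Aurora and Polo-like kinases build the spindle, kinetochore proteins tie chromosomes to microtubules and signal until all are attached, and the anaphase-promoting complex (APC/C) then marks cyclin B and securin for destruction. Condensins and topoisomerase II compact and untangle the chromosomes, and a ring of anillin, RhoA and myosin divides the cell. Confluent ECs under steady laminar flow are known to divide little, and transcripts of this kind come from the cells that are in cycle.

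The libraries held 29606854 to 41058902 counted reads, and levels are given as CPM, the counts of a gene scaled by the total count of its library. The files give no transcript lengths, so that levels are compared between libraries and not between genes. Of the 39 members, 38 had 106 to 10159 counts in every library and were tested in each comparison. CDC20 had 6 to 40 counts and did not reach the minimum of 1 CPM in 3 of the libraries compared. As to the identity of the cells, 7 of 10 endothelial markers were in the table, none of them at 0 (365 counts or more). Their summed level was 4409 to 5611 CPM at 2 dyne/cm2, 6920 to 7725 in set 1, 6558 to 7402 in set 2 and 7930 to 8622 at 80 dyne/cm2. Markers of smooth muscle (8 genes, 48.5 to 85.2 CPM summed), fibroblasts (7 genes, 11.9 to 219 CPM) and leukocytes (8 genes, 11.5 to 32.5 CPM) were low in comparison, with DES and DPT at 0, CNN1 at 5 counts or fewer and PTPRC at 2 or fewer. Other genes of the same lists were well detected, with up to 7342 counts for COL1A2, 3209 for SMTN, 1915 for COL1A1 and 807 for CD68. By edgeR's test 3 of the 7 endothelial markers (PECAM1, TEK and ESAM) fell at 2 dyne/cm2, where 12.4% of all genes did. At 80 dyne/cm2 1 of 7 (KDR) rose, where 4.36% of all genes did. CDH5, TIE1 and ERG passed in neither comparison. The part of the endothelial markers in the results below was not tested. Neither was that of the fibroblast markers, of which 3 of 5 tested (PDGFRA, PDGFRB and COL1A2) rose at 2 dyne/cm2 and 0 of 4 passed edgeR's test at 80 dyne/cm2, with 2 at an unadjusted p under 0.05 and 0 called by DESeq2. Their sums in donors 1 to 3 were 185, 23.0 and 188 CPM at 2 dyne/cm2, 89.6, 22.9 and 68.1 in set 1, 219, 20.2 and 130.5 in set 2, and 37.4, 11.9 and 112 at 80 dyne/cm2. The sum was below set 2 at 80 dyne/cm2 in each donor, and by most in donor 1.

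The members moved together from culture to culture, and the order of the cultures differed between donors. Summed over the 39 genes, donor 1 had 1598 CPM at 2 dyne/cm2, 2145 in set 1, 2203 in set 2 and 3125 at 80 dyne/cm2. The same sums were 1368, 1601, 1926 and 1058 CPM in donor 2, and 1052, 3236, 2275 and 1624 CPM in donor 3. The culture at 2 dyne/cm2 was thus below both cultures at 30 dyne/cm2 in each of the 3 donors, while the culture at 80 dyne/cm2 was the highest of the 4 in donor 1 and the lowest in donor 2. Gene by gene, the highest culture of donor 1 was the one at 80 dyne/cm2 for 39 of 39 members, that of donor 2 was set 2 for 37, and that of donor 3 was set 1 for 39. The same held for 38%, 18.4% and 24% of all genes tested. The lowest was 2 dyne/cm2 for 38 members in donor 1, 80 dyne/cm2 for 36 in donor 2 and 2 dyne/cm2 for 39 in donor 3, where 35.6%, 47.4% and 45.5% of all genes tested were. In these bulk RNA samples, fewer dividing cells and less RNA of these genes per dividing cell cannot be told apart.

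**Figure D1:**
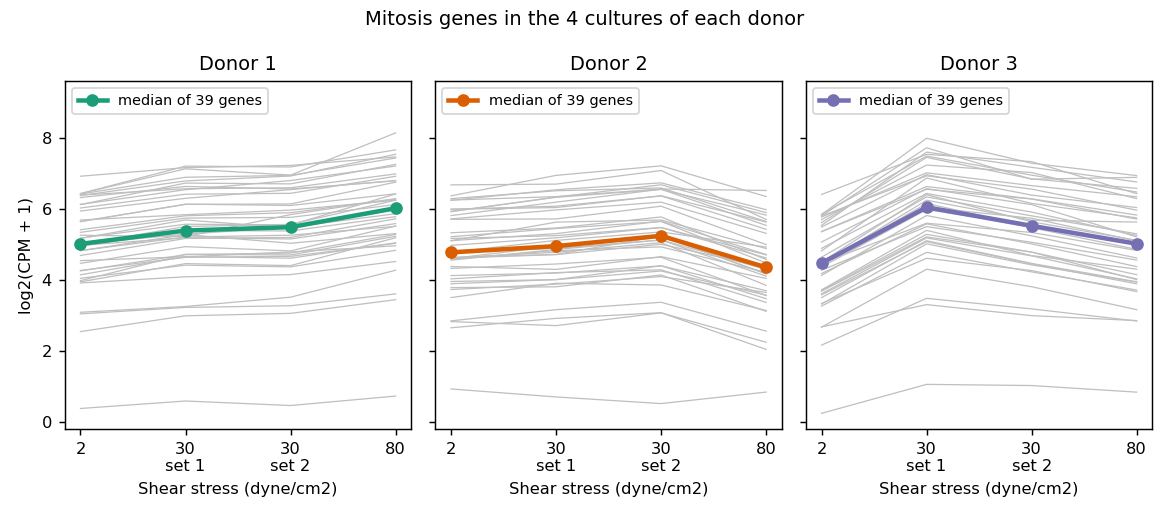
Levels of the 39 mitosis genes as log2(CPM + 1) in the 4 cultures of each donor, 1 panel per donor. Each grey line is a gene and the coloured line is their median, which was highest at 80 dyne/cm2 in donor 1 (6.02), in set 2 in donor 2 (5.25) and in set 1 in donor 3 (6.05).

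As a description of how closely the genes moved together, the median Pearson correlation of log2(CPM + 1) over the 741 pairs of members was 0.933 across the 12 libraries, against 0.0391 over all pairs of genes tested. These libraries share donors and, within a library, a depth, and no p is given. Correlation with the median of the members was 0.881 for MYBL2, the lowest of the 38 genes tested, and 0.991 for TPX2, the highest, and 0.316 for CDC20 with its few counts. The highest library held 2.47 (SMC2) to 5.12 times (MYBL2) the level of the lowest, with a median of 3.49. That highest library was donor 3 of set 1 for 27 members and donor 1 at 80 dyne/cm2 for 12, and the lowest was donor 2 at 80 dyne/cm2 for 22 and donor 3 at 2 dyne/cm2 for 17. The spread of log2(CPM + 1) was split into shares, as sums of squares. The median share over the members was 34.9% between conditions, 24.6% between donors and 39.4% in the remainder. The same medians over all genes tested were 39.6%, 30% and 19%. Each is a median taken separately, so that the shares need not add up to the whole. Set 1 and set 2 were counted as separate conditions, so that the share between conditions includes their difference at the same shear stress. The median share left to neither donor nor condition was larger over these genes than over all genes tested.

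The first comparison asked how low shear stress changes these genes relative to physiological flow. At 2 vs. 30 dyne/cm2, each of the 38 tested members had a log2 fold change below 0, where 49.8% of all genes tested did. The median was -0.73 (0.604-fold), against 0.0025 over all genes, and the values ran from -1.15 for ANLN, the scaffold of the cytokinetic ring, to -0.25 for KIF18A, a kinesin that limits microtubule length. The size of the difference varied between donors: within a donor, the median difference in log2(CPM + 1) over the 39 genes was -0.40 in donor 1, -0.16 in donor 2 and -1.53 in donor 3. Members were lower at 2 dyne/cm2 for 38, 36 and 39 of 39 in these donors. Of the 38 tested, 35 were lower in 3 of 3 donors, where 33.4% of all genes were, and for 17 the groups did not overlap, where 18.9% of all genes had that pattern in this direction.

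None of these differences passed the test. With edgeR's quasi-likelihood test and the donor as a block, 0 of 38 members had a Benjamini-Hochberg adjusted p under 0.05, where 25.8% of all genes tested did (12.4% lower, 13.4% higher). With a change of at least 2-fold asked for as well, 4.54% of all genes passed as lower and 5.06% as higher, and none of the members. Adjusted p ran from 0.0539 (ANLN) to 0.357 (KIF18A), and 20 members had an unadjusted p under 0.05, where 42.5% of all genes did. DESeq2 with the same block called 19 members lower. Over all genes it called 3325 in either direction, against 2895 by edgeR. Leaving out donor 1, 2 or 3 gave 2, 1 or 3 members called lower and medians of -0.88, -0.97 and -0.32, so that the median was smallest in size without donor 3. These fits called 1389, 1799 and 1494 genes over all genes. Set 2 in place of set 1 as the control gave a median of -0.60 with 29 members called lower, and both sets together -0.66 with 26. Over all genes, 2769 were called with set 2, 47.1% of them higher, and 4252 with both sets, 50% of them higher. By the design text set 2 also differs from the low cultures in slide and seeding density. These 2 fits cannot tell that apart from shear stress. Leaving out donor 2 of set 1 in the fit without the block gave 4 members, with 993 genes called over all genes.

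**Figure D2:**
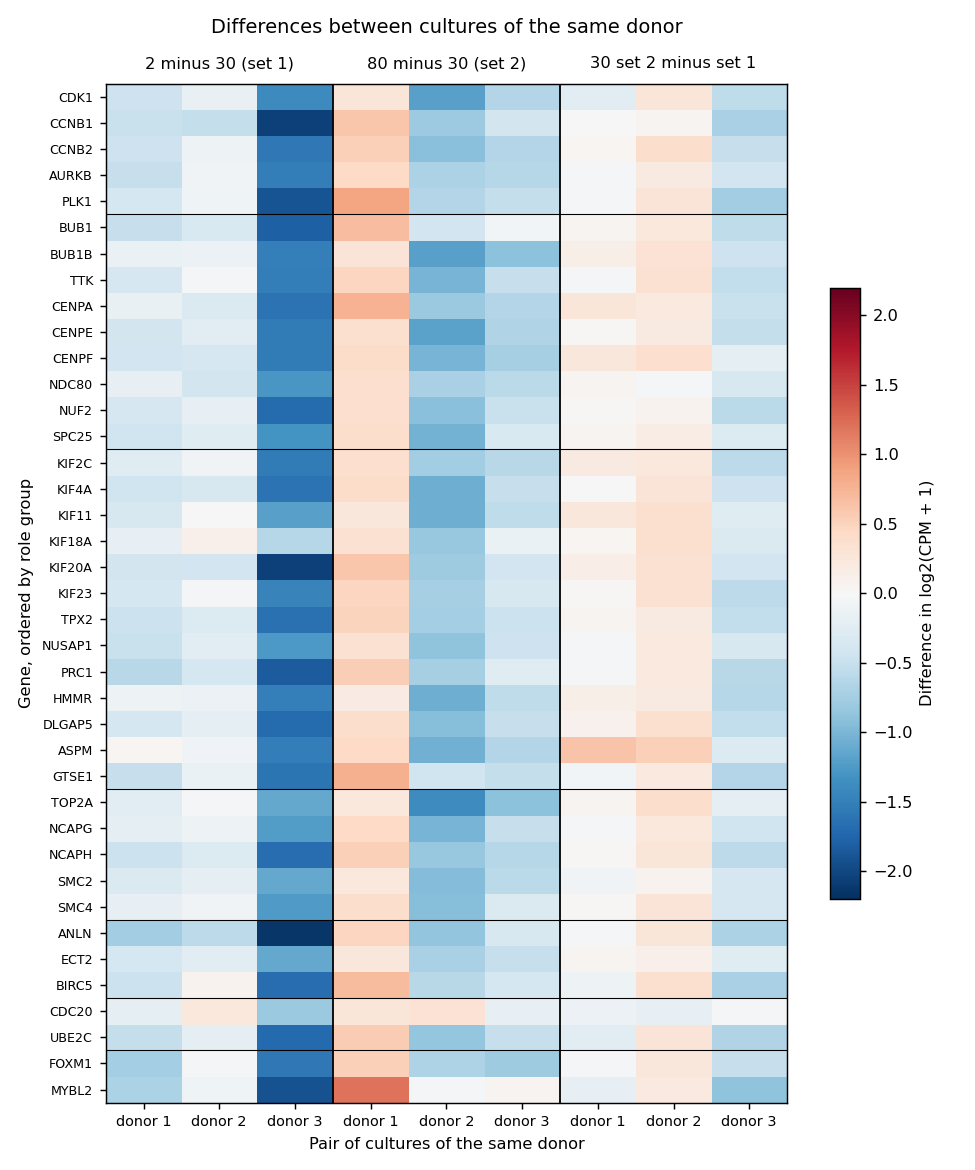
Difference in log2(CPM + 1) between 2 cultures of the same donor for each of the 39 genes (lines, ordered by role), with 3 donors for each of the 3 comparisons (columns). Blue stands for a lower and red for a higher level in the culture named first. The 3 columns of 2 minus 30 dyne/cm2 are nearly all blue and darkest in donor 3, and those of 80 minus 30 dyne/cm2 are red in donor 1 and blue in donors 2 and 3 except for CDC20 and MYBL2.

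The second comparison asked the same of supra-high shear stress. At 80 vs. 30 dyne/cm2, the donors went in opposite directions. The median within-donor difference was 0.43 in donor 1, where 39 of 39 members were higher at 80 dyne/cm2, -0.86 in donor 2, where 38 were lower, and -0.51 in donor 3, where 38 were lower. No member was lower in 3 of 3 donors (27.1% of all genes were), and in no member were the groups free of overlap (7.92% of all genes lower, 6.23% higher). The fitted median was -0.30 (0.813-fold), with 36 of 38 log2 fold changes below 0 against 50.9% of all genes, and the range was -0.65 (TOP2A) to 0.43 (MYBL2). By edgeR's quasi-likelihood test with the donor block, 0 of 38 members had an adjusted p under 0.05, where 8.4% of all genes did (4.04% lower, 4.36% higher). The smallest adjusted p was 0.143 (TOP2A), 3 members had an unadjusted p under 0.05 (26.1% of all genes), and DESeq2 called 0 as well. The call turned on donor 1: without it 35 members were called lower and the median was -0.64, from 2 pairs of libraries with 1 residual degree of freedom. That fit called 2042 genes over all genes tested, 49.3% of them higher. Without donor 2 the median was -0.062 with 23 members below 0, and without donor 3 it was -0.205, each with 0 called. Without the library of donor 2 at 80 dyne/cm2 and without the block, it was 0.10.

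The 2 sets at 30 dyne/cm2 differ in no shear stress and show how far the members moved without such a difference. In set 2 minus set 1, the median within-donor difference was 0.027 in donor 1, 0.24 in donor 2, where 37 members were higher, and -0.51 in donor 3, where 39 of 39 were lower. The fitted median was -0.11, with 32 of 38 values below 0 (48.7% of all genes) and a range of -0.30 (MYBL2) to 0.26 (ASPM). Of 38 members 0 passed edgeR's quasi-likelihood test at an adjusted p under 0.05, where 0.0179% of all genes did, 0 had an unadjusted p under 0.05 (19.2% of all genes), and DESeq2 called 0. Without donor 3 the median was 0.13. In donor 3 the difference between these 2 cultures at the same shear stress was as large as that between 80 dyne/cm2 and set 2 in the same donor (-0.51 and -0.51), and in donor 2 it was larger in size than that between 2 dyne/cm2 and set 1 (0.24 and -0.16).

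Whether the members responded differently to low and to supra-high shear stress was tested in 1 fit over the 12 libraries, as the change at 2 dyne/cm2 minus the change at 80 dyne/cm2. By the design text the 2 responses also come from different slides and seeding densities, which this contrast cannot tell apart from shear stress. The difference was below 0 for 37 of 38 members, where 49.3% of all genes were, and its median was -0.48. By edgeR's quasi-likelihood test, 1 of 38 passed at an adjusted p under 0.05, where 37.1% of all genes did (17.9% lower, 19.3% higher), and 3 had an unadjusted p under 0.05 (47.1% of all genes). The one called was MYBL2, with a difference of -1.41 ± 0.465 (SE) and an adjusted p of 0.0392, and within donors the difference was -1.89, -0.056 and -1.97. BUB1 (-1.02, edgeR adjusted p 0.0578) and ANLN (-0.99, edgeR adjusted p 0.0886) came next. The call of MYBL2 was lost without the donor block (adjusted p 0.105), without donor 1 (0.158) and without donor 3 (0.126) in edgeR's test, and was kept without donor 2 (0.0363). TOP2A was the only member with a value above 0 (0.15).

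**Figure D3:**
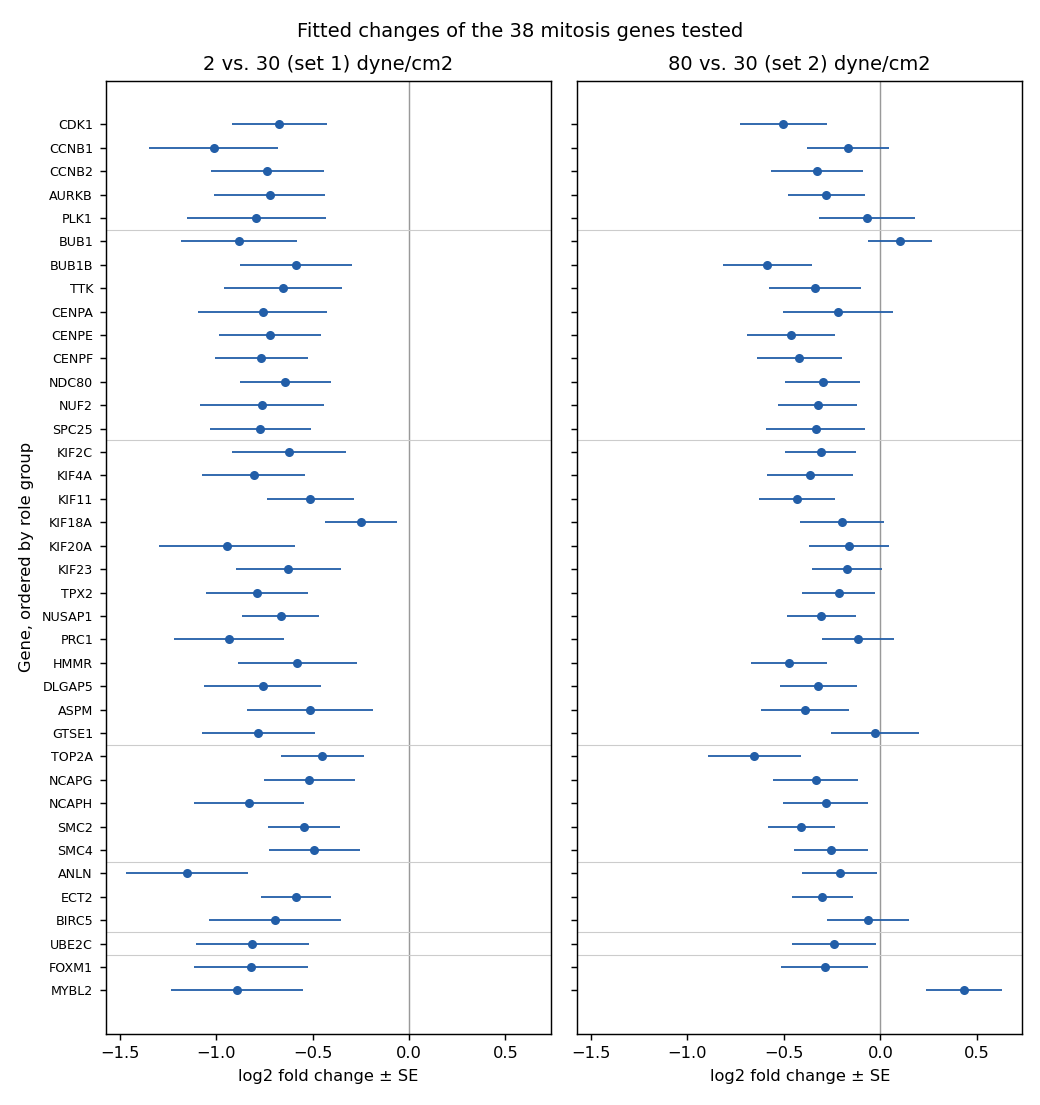
Fitted log2 fold change ± SE of the 38 tested mitosis genes at 2 vs. 30 dyne/cm2 (set 1, left) and at 80 vs. 30 dyne/cm2 (set 2, right), from edgeR with the donor as a block and 3 donors per group. All 38 points lie below 0 on the left and 36 on the right, where MYBL2 (0.43) and BUB1 (0.10) lie above it.

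In the paragraphs that follow, the 3 CPM values of a group are those of donors 1, 2 and 3, and log2 fold changes are those of edgeR ± SE over 3 donor pairs. None of those at 2 or 80 dyne/cm2 passed the test.

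Both transcription factors of the group, which switch on the other members in G2, were measured. MYBL2 (ENSSSCG00000007366, chromosome 17, 46256245 to 46287929), which encodes B-MYB, the partner of MuvB in late S phase and G2, had 85.4, 75.1 and 54.96 at 2 dyne/cm2, 139, 80.5 and 210.0 in set 1, 123, 93.5 and 113 in set 2, and 281, 90.8 and 118 at 80 dyne/cm2. The library of donor 1 at 80 dyne/cm2 was the highest of all 12 and that of donor 3 at 2 dyne/cm2 the lowest, and both comparisons overlapped between groups. The log2 fold change was -0.89 ± 0.341 at low and 0.43 ± 0.198 at supra-high shear stress. Within donors, the difference at 80 dyne/cm2 was 1.19, -0.043 and 0.053, where the medians of the members were 0.43, -0.86 and -0.51, and 0, 1 and 0 of the other members had a higher value in these donors. FOXM1 (ENSSSCG00000000739, chromosome 5, 67246219 to 67263215), the forkhead factor that follows B-MYB on mitotic promoters, had 14.8, 14.6 and 12.1 at 2 dyne/cm2, 25.5, 15.1 and 38.03 in set 1, 25.1, 18.1 and 26.6 in set 2, and 36.6, 10.9 and 15.1 at 80 dyne/cm2. All 3 libraries at 2 dyne/cm2 lay below the lowest of set 1, by a narrow margin in donors 1 and 2, and at 80 dyne/cm2 donor 1 was above and donors 2 and 3 below their controls. Its log2 fold change was -0.82 ± 0.295 at low and -0.29 ± 0.225 at supra-high shear stress.

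Of the mitotic kinases and cyclins, 5 were tested, with a median log2 fold change of -0.73 at low and -0.28 at supra-high shear stress. CDK1 (ENSSSCG00000010214, chromosome 14, 64233945 to 64255290), the kinase that drives entry into mitosis, had 27.4, 23.7 and 17.2 at 2 dyne/cm2, 37.8, 26.5 and 46.9 in set 1, 31.8, 32.2 and 31.4 in set 2, and 38.6, 13.4 and 19.8 at 80 dyne/cm2. Its 3 libraries in set 2 were nearly equal, while those at 80 dyne/cm2 spread from the lowest of all 12 to above all of set 2. The log2 fold change was -0.67 ± 0.245 at low and -0.50 ± 0.226 at supra-high shear stress. CCNB1 (ENSSSCG00000029326, chromosome 16, 47338239 to 47348385), cyclin B1, the subunit that activates CDK1, had 49.1, 33.4 and 27.3 at 2 dyne/cm2, 69.00, 48.5 and 116 in set 1, 69.6, 50.6 and 70.3 in set 2, and 107, 28.6 and 52.8 at 80 dyne/cm2. Its level at 2 dyne/cm2 was below set 1 in each donor and the groups overlapped only where donor 1 at 2 dyne/cm2 passed donor 2 of set 1. With -1.01 ± 0.333 it had one of the 3 lowest log2 fold changes at 2 dyne/cm2, and at 80 dyne/cm2 it had -0.17 ± 0.212. PLK1 (ENSSSCG00000026748, chromosome 3, 22537814 to 22550901), Polo-like kinase 1, which acts in centrosome maturation and spindle assembly, had 35.2, 23.5 and 21.8 at 2 dyne/cm2, 46.5, 25.3 and 83.6 in set 1, 45.9, 31.1 and 48.8 in set 2, and 84.7, 19.5 and 33.7 at 80 dyne/cm2. In set 1, donor 3 stood apart from the others, with a level above those of donors 1 and 2 together. It had -0.79 ± 0.361 at low and -0.068 ± 0.25 at supra-high shear stress. CCNB2, the second cyclin B, had -0.73 and -0.33 in the same order, and AURKB, the kinase of the chromosomal passenger complex, had -0.72 and -0.28.

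The 9 genes of the kinetochore and the spindle checkpoint had a median log2 fold change of -0.76 at low and of -0.34 at supra-high shear stress. CENPF (ENSSSCG00000015581, chromosome 9, 128948386 to 129012241), a large kinetochore protein made in G2, had 68.98, 55.3 and 51.1 at 2 dyne/cm2, 92.2, 72.1 and 149.8 in set 1, 110.4, 93.00 and 129 in set 2, and 147, 45.4 and 77.3 at 80 dyne/cm2. The groups at 2 and 30 dyne/cm2 did not overlap, and at 80 dyne/cm2 donor 1 was the highest and donor 2 the lowest of the 6 libraries compared. The log2 fold change was -0.77 ± 0.242 at low and -0.42 ± 0.219 at supra-high shear stress, and set 2 vs. set 1 gave 0.12 ± 0.128. BUB1B (ENSSSCG00000004782, chromosome 1, 131093026 to 131143840), which encodes BubR1, the checkpoint protein that holds back the APC/C, had 50.6, 39.2 and 32.6 at 2 dyne/cm2, 56.2, 43.1 and 94.2 in set 1, 61.5, 53.8 and 68.7 in set 2, and 74.96, 22.9 and 36.1 at 80 dyne/cm2. In donors 1 and 2 the cultures at 2 dyne/cm2 were close to set 1, and donor 3 alone was well below it. It had -0.58 ± 0.291 at 2 dyne/cm2 and, at 80 dyne/cm2, -0.59 ± 0.231, the second lowest of the members. BUB1 (ENSSSCG00000030469, chromosome 3, 45585188 to 45623240), the kinase that recruits BubR1 and the passenger complex, had 30.97, 26.5 and 20.8 at 2 dyne/cm2, 44.5, 33.7 and 74.9 in set 1, 46.4, 39.9 and 50.4 in set 2, and 74.9, 29.4 and 48.6 at 80 dyne/cm2. No library at 2 dyne/cm2 reached the lowest of set 1. Its log2 fold change at 80 dyne/cm2, 0.10 ± 0.166, was one of 2 above 0, and at 2 dyne/cm2 it was -0.88 ± 0.299. Of the others, TTK, the checkpoint kinase MPS1, had -0.66 at low and -0.34 at supra-high shear stress, CENPA, the centromeric histone, -0.76 and -0.22, and CENPE, the kinetochore kinesin, -0.72 and -0.46. Of the microtubule-binding NDC80 complex, 3 of the 4 subunits are members, with -0.64 and -0.30 for NDC80, -0.76 and -0.33 for NUF2 and -0.77 and -0.34 for SPC25. The remaining subunit, SPC24, is in the list of other mitotic genes and was named after its values were seen. It had -0.84 ± 0.309 at low and 0.435 ± 0.189 at supra-high shear stress, neither of which passed the test. The difference between its responses did, with -1.299 ± 0.399 (edgeR adjusted p 0.0298), and that call was lost without the donor block (0.121), without donor 1 (0.167) and without donor 3 (0.135).

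Kinesins and other spindle proteins were the largest group, with 13 genes and a median log2 fold change of -0.67 at low and -0.31 at supra-high shear stress. KIF20A (ENSSSCG00000014326, chromosome 2, 140202316 to 140213144), which carries passenger proteins to the midzone of the spindle, had 82.2, 59.6 and 45.5 at 2 dyne/cm2, 109.5, 79.8 and 193 in set 1, 121, 102 and 143 in set 2, and 185, 58.6 and 107 at 80 dyne/cm2. Donor 3 differed most between 2 dyne/cm2 and set 1 (-2.06 in log2(CPM + 1)), and donors 1 and 2 were below set 1 by less (-0.41 and -0.41). Fitted values were -0.95 ± 0.352 at low and -0.16 ± 0.208 at supra-high shear stress. TPX2 (ENSSSCG00000007235, chromosome 17, 35431271 to 35484814), the activator of Aurora A on the spindle, had 84.6, 74.7 and 56.9 at 2 dyne/cm2, 118, 92.1 and 179 in set 1, 122, 105 and 123 in set 2, and 172, 62.1 and 88.01 at 80 dyne/cm2. It did not overlap between 2 dyne/cm2 and set 1, and of all members it followed their median most closely. Its values were -0.79 ± 0.266 and -0.22 ± 0.189. KIF11 (ENSSSCG00000010471, chromosome 14, 104125839 to 104177381), the motor that pushes the spindle poles apart, had 60.5, 51.3 and 40.1 at 2 dyne/cm2, 77.8, 51.7 and 92.9 in set 1, 92.4, 66.6 and 76.7 in set 2, and 110.4, 30.9 and 51.5 at 80 dyne/cm2. In donor 2 the cultures at 2 dyne/cm2 and in set 1 were nearly equal. Its values were -0.51 ± 0.224 at 2 dyne/cm2, -0.43 ± 0.197 at 80 dyne/cm2 and 0.094 ± 0.138 for set 2 vs. set 1.

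A further 3 spindle genes, KIF18A, ASPM and GTSE1, lay toward the upper end of the members' log2 fold changes in at least 1 comparison. KIF18A (ENSSSCG00000013332, chromosome 2, 32244073 to 32331392) had 7.28, 6.11 and 5.41 at 2 dyne/cm2, 8.38, 5.58 and 8.902 in set 1, 8.69, 7.43 and 6.99 in set 2, and 11.2, 3.76 and 6.25 at 80 dyne/cm2. Donor 2 was higher at 2 dyne/cm2 than in set 1, which was so for 3 of the 39 members in that donor. Its log2 fold change was -0.25 ± 0.188 at 2 dyne/cm2, the smallest in size of the members, and -0.20 ± 0.217 at 80 dyne/cm2. ASPM (ENSSSCG00000010896, chromosome 10, 19971516 to 20039680), a spindle pole protein known for its role in brain size, had 37.3, 23.8 and 22.04 at 2 dyne/cm2, 36.3, 25.4 and 65.1 in set 1, 56.4, 36.7 and 52.4 in set 2, and 76.9, 17.1 and 33.3 at 80 dyne/cm2. It was higher in set 2 than in set 1 in donors 1 and 2 and lower in donor 3. The value for set 2 vs. set 1, 0.26 ± 0.199, was the highest of the members, with -0.51 ± 0.326 at low and -0.39 ± 0.229 at supra-high shear stress. GTSE1 (ENSSSCG00000000002, chromosome 5, 3227813 to 3246679), a microtubule-bound protein made in G2 and M, had 14.4, 12.3 and 10.4 at 2 dyne/cm2, 21.04, 13.8 and 33.5 in set 1, 20.2, 16.1 and 21.1 in set 2, and 35.5, 11.6 and 14.5 at 80 dyne/cm2. Donor 1 at 80 dyne/cm2 was the highest of its 12 libraries and donor 3 of set 1 came next. It had -0.78 ± 0.293 at low and -0.027 ± 0.227 at supra-high shear stress. Among the other 7, the value at 2 dyne/cm2 ran from -0.58 for HMMR, which tethers spindle microtubules, through -0.62 for KIF2C and -0.62 for KIF23, -0.67 for NUSAP1, -0.76 for DLGAP5 and -0.80 for KIF4A, to -0.93 for PRC1, the bundler of midzone microtubules. In the supra-high comparison these same genes had -0.47, -0.31, -0.17, -0.31, -0.32, -0.36 and -0.11 in that order.

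The 5 genes of chromosome structure had the median nearest to 0 at 2 dyne/cm2 among the groups (-0.52) and -0.34 at 80 dyne/cm2. TOP2A (ENSSSCG00000017473, chromosome 12, 22001300 to 22028452), topoisomerase IIα, which untangles sister chromatids, had 120.2, 101 and 83.9 at 2 dyne/cm2, 142, 103 and 185 in set 1, 149, 134 and 160.1 in set 2, and 176, 51.1 and 85.3 at 80 dyne/cm2. In donor 2 the levels at 2 dyne/cm2 and in set 1 were within 2 CPM of each other, and at 80 dyne/cm2 donors 2 and 3 were below all 3 libraries of set 2. Its log2 fold change was -0.45 ± 0.215 at low and -0.65 ± 0.242 at supra-high shear stress, the lowest of the members there. Within donors, the values at 80 dyne/cm2 were 0.24, -1.38 and -0.90, and 36, 38 and 37 of the other 38 members had a higher one. SMC2 (ENSSSCG00000005403, chromosome 1, 245409559 to 245459032), the core of both condensins, had 78.96, 77.3 and 54.7 at 2 dyne/cm2, 98.3, 90.2 and 121 in set 1, 93.5, 95.5 and 93.3 in set 2, and 109.8, 49.1 and 61.5 at 80 dyne/cm2. The groups at 2 and 30 dyne/cm2 did not overlap, and the libraries of set 2 differed by little. It had -0.54 ± 0.186 and -0.41 ± 0.175. SMC4 (ENSSSCG00000011731, chromosome 13, 100078149 to 100120907), its partner, had 82.8, 62.7 and 53.7 at 2 dyne/cm2, 93.96, 66.6 and 129 in set 1, 95.7, 81.5 and 99.9 in set 2, and 126, 42.05 and 80.2 at 80 dyne/cm2. Its groups overlapped in both comparisons, and in donor 2 the culture at 2 dyne/cm2 was close to set 1. Its fitted values were -0.49 ± 0.236 at low and -0.25 ± 0.193 at supra-high shear stress. NCAPG and NCAPH, subunits of condensin I, had -0.52 and -0.83 at low shear stress, and -0.34 and -0.28 at supra-high shear stress.

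Of the 3 genes of cytokinesis and the passenger complex, ANLN (ENSSSCG00000016658, chromosome 18, 37647952 to 37710939) had 85.4, 81.7 and 56.4 at 2 dyne/cm2, 147, 122 and 253 in set 1, 144, 147 and 155 in set 2, and 202, 80.6 and 122 at 80 dyne/cm2. The 3 cultures at 2 dyne/cm2 lay below all others but donor 2 at 80 dyne/cm2, and donor 3 of set 1 was the highest. Its log2 fold change at 2 dyne/cm2, -1.15 ± 0.316 (0.450-fold), was the largest in size of the members, and at 80 dyne/cm2 it was -0.21 ± 0.196. ECT2 (ENSSSCG00000035746, chromosome 13, 111248215 to 111310746), the exchange factor that switches on RhoA at the division plane, had 27.4, 23.00 and 21.2 at 2 dyne/cm2, 36.02, 27.4 and 47.5 in set 1, 37.4, 29.5 and 39.5 in set 2, and 44.6, 17.6 and 27.5 at 80 dyne/cm2. The highest library at 2 dyne/cm2 (27.39 CPM) was just under the lowest of set 1 (27.42 CPM). With -0.59 ± 0.182 at 2 dyne/cm2 it had the smallest SE of the members in that comparison, and at 80 dyne/cm2 it had -0.30 ± 0.156. BIRC5, survivin, which anchors the passenger complex to chromosomes, had -0.70 ± 0.343 at low and -0.066 ± 0.213 at supra-high shear stress, and it was higher at 2 dyne/cm2 than in set 1 in donor 2.

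The 2 genes that act with the APC/C could be read unequally. UBE2C (ENSSSCG00000007423, chromosome 17, 48018403 to 48021542), the enzyme that starts ubiquitin chains on APC/C targets, had 35.1, 30.4 and 20.8 at 2 dyne/cm2, 50.6, 35.5 and 70.3 in set 1, 43.2, 43.6 and 44.2 in set 2, and 63.9, 23.6 and 30.96 at 80 dyne/cm2. All 3 libraries at 2 dyne/cm2 were below the lowest of set 1, in donor 1 at 2 dyne/cm2 only narrowly so. Its log2 fold change was -0.81 ± 0.295 at 2 dyne/cm2, -0.24 ± 0.217 at 80 dyne/cm2 and -0.22 ± 0.182 for set 2 vs. set 1. CDC20 (ENSSSCG00000003949, chromosome 6, 167886266 to 167890587), the activator of the APC/C at the start of anaphase, had 0.306, 0.912 and 0.189 at 2 dyne/cm2, 0.511, 0.636 and 1.09 in set 1, 0.384, 0.437 and 1.04 in set 2, and 0.664, 0.798 and 0.797 at 80 dyne/cm2. Its level was near or under 1 CPM throughout and it did not follow the other members. With 6 to 40 counts a library CDC20 was not tested in the fits reported, and no difference between conditions is read from it.

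**Figure D4:**
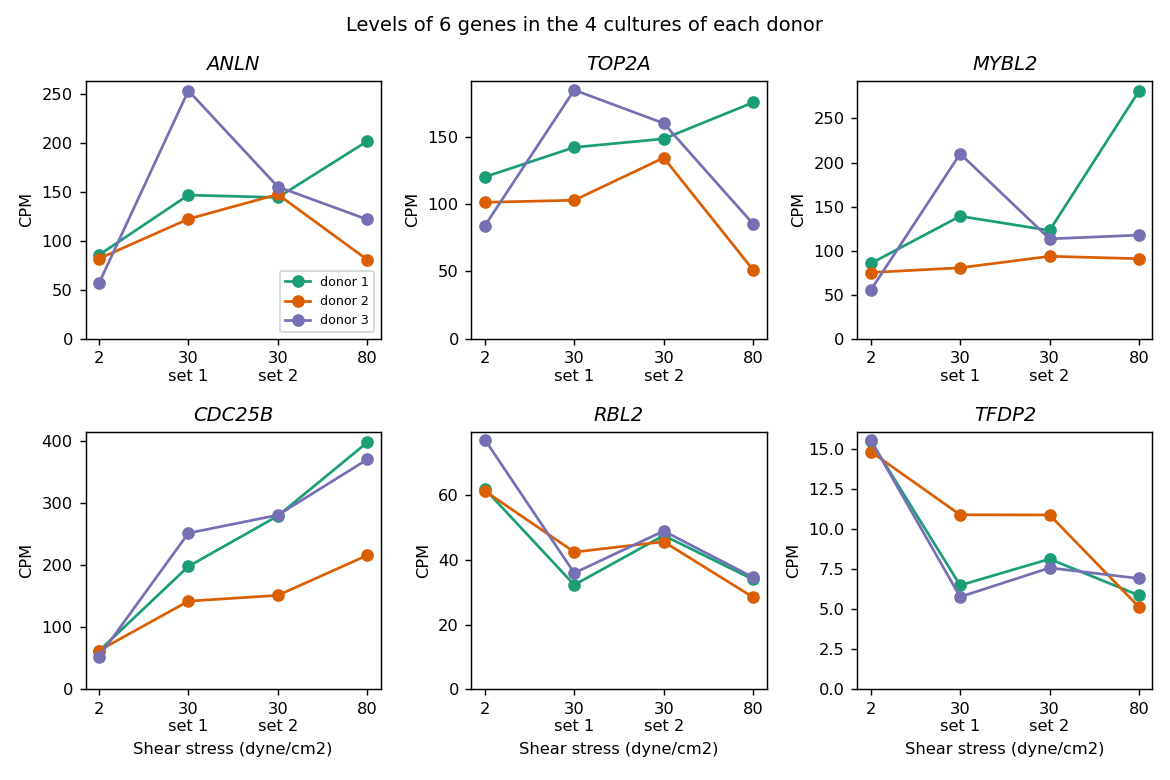
Levels in CPM of 3 mitosis genes (ANLN, TOP2A, MYBL2) and 3 other genes of the cell cycle (CDC25B, RBL2, TFDP2) in the 4 cultures of each donor, with each axis starting at 0. ANLN is lowest at 2 dyne/cm2 in donors 1 and 3, MYBL2 peaks in donor 1 at 80 dyne/cm2 (281 CPM), and CDC25B lies between 52.5 and 62.2 CPM in the 3 cultures at 2 dyne/cm2.

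Other genes of cell division were read from 5 lists chosen by function. A list of 59 further mitotic genes, of which 51 were tested, had a median log2 fold change of -0.66 at 2 dyne/cm2, near that of the members, and 7 of the 51 fell by edgeR's quasi-likelihood test, a share of 13.7% beside 12.4% of all genes. DESeq2 called 22 of the 51 lower, where it called 3325 genes over all genes, 51.2% of them higher. The largest change among the 7 was that of CDC25B, the phosphatase that activates CDK1. It had 61.5, 62.2 and 52.5 at 2 dyne/cm2, 198, 142 and 251 in set 1, 279, 151 and 280.4 in set 2, and 397, 216 and 370.0 at 80 dyne/cm2. The 3 cultures at 2 dyne/cm2 stood apart from all 9 others, and the log2 fold change was -1.695 ± 0.2 (edgeR adjusted p 0.00862). MELK, a kinase of the mitotic gene set, was next with -1.402 ± 0.283 (edgeR adjusted p 0.0265) and 12.4, 13.1 and 9.16 at 2 dyne/cm2, 26.3, 24.2 and 45.2 in set 1, 19.2, 25.1 and 26.4 in set 2, and 32.5, 14.3 and 19.3 at 80 dyne/cm2. Neither call was lost in any alternative fit recomputed for these genes. At 80 dyne/cm2 the median of the list was -0.28, and 1 of 51 rose by edgeR's test, where 4.36% of all genes did. It was CDC25B, with 0.51 ± 0.0891 (edgeR adjusted p 0.018), higher in 3 of 3 donors. That call was lost in edgeR's test without the block (adjusted p 0.728), with set 1 as the control (0.0815), with dispersion from all 12 libraries (0.14), without donor 2 (0.0697) and without donor 3 (0.142). Its responses to low and supra-high shear stress differed by -2.17 ± 0.258 (edgeR adjusted p 0.000343) in the fit over 12 libraries, where 7 of the list passed, all with a lower value, a share of 13.7% beside 17.9% of all genes. Another of these was PKMYT1, the kinase that holds CDK1 inactive, with -1.43 ± 0.457 (edgeR adjusted p 0.0349, and 0.0854 without the block).

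The list of MuvB, E2F and pocket protein genes, which hold the regulators of the members, went both ways. Of 17 tested, 3 rose and 3 fell at 2 dyne/cm2, with a median of -0.23, where 13.4% of all genes rose and 12.4% fell. TFDP2, a partner of E2F proteins, had 15.5, 14.9 and 15.6 at 2 dyne/cm2, 6.503, 10.9 and 5.78 in set 1, 8.15, 10.9 and 7.59 in set 2, and 5.87, 5.14 and 6.93 at 80 dyne/cm2, and its log2 fold change was 1.06 ± 0.233 (edgeR adjusted p 0.0322). RBL2, the pocket protein p130 of the DREAM repressor, had 61.9, 61.2 and 77.1 at 2 dyne/cm2, 32.2, 42.4 and 35.9 in set 1, 47.5, 45.6 and 48.9 in set 2, and 33.9, 28.4 and 34.5 at 80 dyne/cm2, with 0.87 ± 0.145 (edgeR adjusted p 0.0171) at 2 dyne/cm2. For both genes the 3 cultures at 2 dyne/cm2 were above the other 9. The third that rose was DYRK1A, the kinase known to promote DREAM assembly, with 0.51 ± 0.107 (edgeR adjusted p 0.0292). LIN9, a MuvB subunit (-0.69 ± 0.161, edgeR adjusted p 0.0365), RBL1, the pocket protein p107 (-0.60 ± 0.116, edgeR adjusted p 0.0238), and LIN54, the DNA-binding subunit of MuvB (-0.48 ± 0.119, edgeR adjusted p 0.042), fell. DYRK1A and LIN54 were named after their values were seen. TFDP2, DYRK1A and LIN54 lost their calls without the donor block (edgeR adjusted p 0.0513, 0.0887 and 0.0984), and of the 6 genes only RBL2 kept its call without each donor in turn. At 80 dyne/cm2 RBL2 fell, as 1 of 17, where 4.04% of all genes fell, with a log2 fold change of -0.52 ± 0.0848 (edgeR adjusted p 0.014). That call was lost in edgeR's test without the block (0.401), with set 1 (0.604) or both sets (0.19) as the control, with dispersion from all 12 libraries (0.0525), without donor 2 (0.0554) and without donor 3 (0.093). In the difference between responses 3 of the 17 passed, where 37.1% of all genes did. Among them were RBL2 and TFDP2, with 1.403 ± 0.174 and 1.57 ± 0.307 (edgeR adjusted p 0.000412 and 0.00382).

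Genes of S phase and DNA replication had a median of -0.47 at 2 dyne/cm2, with 38 of 38 below 0, where 49.8% of all genes were. Of these, 5 fell by edgeR's test, a share of 13.2% beside 12.4% of all genes. DESeq2 called 15 of the 38 lower, where it called 3325 genes over all genes, 51.2% of them higher. CDC45, a part of the replicative helicase, had 60.9, 61.2 and 35.3 at 2 dyne/cm2, 270.1, 123 and 179 in set 1, 247, 176 and 138 in set 2, and 239.6, 179.9 and 123 at 80 dyne/cm2. At 2 dyne/cm2 its level was under that of every other culture, and the log2 fold change was -1.82 ± 0.271 (edgeR adjusted p 0.0137), with -0.028 at 80 dyne/cm2. CLSPN, the checkpoint mediator claspin, had -0.94 ± 0.196 (edgeR adjusted p 0.0281). In the supra-high comparison the median of these 38 was -0.34 and 0 passed edgeR's test, where 8.4% of all genes did. An unadjusted p under 0.05 was found for 13 (34.2%), where 26.1% of all genes had one. DESeq2 called 3 lower, where it called 1150 genes over all genes, 54.3% of them higher. The last lists hold genes of cohesin, the ring that joins sister chromatids, with its loaders and regulators such as CDCA5 (sororin), and subunits of the APC/C with the partners FZR1 and UBE2S. Their medians at 2 dyne/cm2 were nearer to 0 than those of the mitotic and S phase lists. The groups at 2 and 30 dyne/cm2 did not overlap, with lower levels at 2 dyne/cm2, for 5 of 11 cohesin genes (45.5%) and 2 of 13 APC/C genes (15.4%), beside 18.9% of all genes, and 6 (54.5%) and 7 (53.8%) were lower in 3 of 3 donors, beside 33.4% of all genes. Of the 13 APC/C genes 0 passed edgeR's test at 2 dyne/cm2 (median -0.14, 4 with an unadjusted p under 0.05, 0 by DESeq2). Of 11 cohesin genes 1 passed (median -0.13). Over all genes 25.8% passed, and 42.5% had an unadjusted p under 0.05. The cohesin gene was STAG1, which fell by 0.45 ± 0.0968 on the log2 scale (edgeR adjusted p 0.0308, and 0.0735 without the donor block). Their medians at 80 dyne/cm2 were -0.023 and -0.12. In the difference between responses, 2 of 13 APC/C genes passed with a higher value, where 19.3% of all genes did. With a lower value, 1 of 11 cohesin genes and 1 of 38 S phase genes passed, where 17.9% of all genes did. They were ANAPC13 (0.74 ± 0.205, edgeR adjusted p 0.0192), CDC16 (0.38 ± 0.121, edgeR adjusted p 0.0334), STAG1 (-0.50 ± 0.146, edgeR adjusted p 0.0249) and CDC45 (-1.82 ± 0.293, edgeR adjusted p 0.0015). Without the donor block, CDC16 (edgeR adjusted p 0.0581) and STAG1 (0.135) lost these calls.

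**Figure D5:**
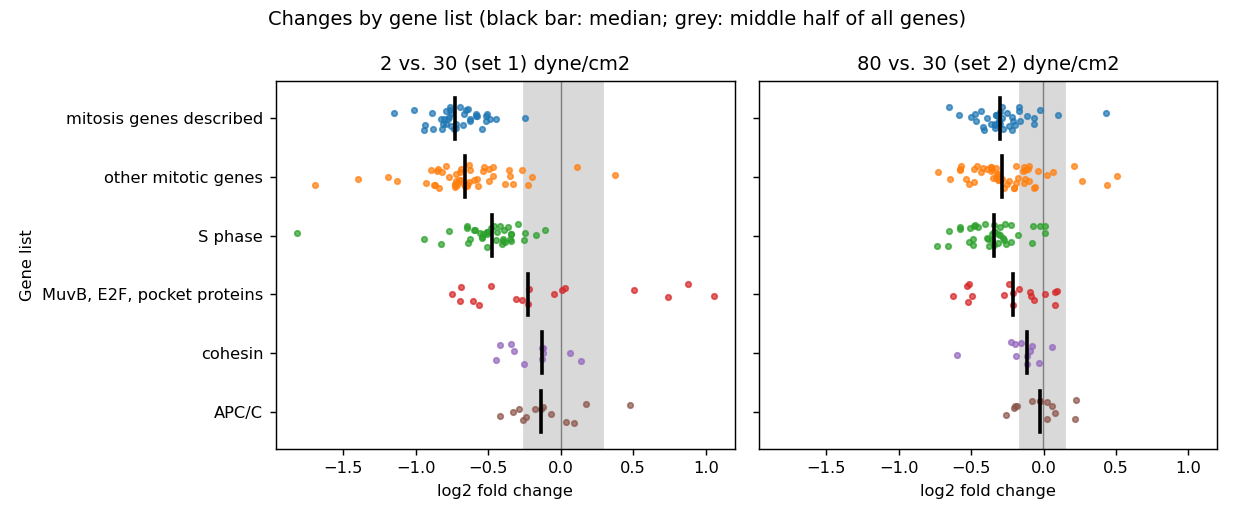
Fitted log2 fold changes of the tested genes of 6 lists at 2 vs. 30 dyne/cm2 (left) and at 80 vs. 30 dyne/cm2 (right), 1 point per gene, with the median of each list as a black bar and the range from the lower to the upper quartile of all genes tested in grey. At 2 dyne/cm2 the medians of the mitosis genes described (-0.73), the other mitotic genes (-0.66) and the S phase genes (-0.47) lie outside the grey band, and those of the APC/C genes (-0.14), cohesin (-0.13) and the MuvB, E2F and pocket protein list (-0.23) inside it.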

How the data were processed

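Per the labels and the methods, RNA libraries of 12 cultures were sequenced as single-end 100 nt reads, and base calling, mapping and counting used CASAVA 1.8.2, STAR 2.4 (Sscrofa11.1, reads at more than 1 location discarded) and featureCounts 1.4.6 over the merged exons of each gene. The authors deposited raw read counts per gene, not normalized. Reads shared with near-identical copies were thus lost, and depth ranged from 29606854 to 41058902 counts per library.

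The fits were made in edgeR 4.0.16 under R 4.3.3 (TMM, quasi-likelihood test, donor as block, 6 libraries per comparison, a minimum of 1 CPM in 3 or more of them, Benjamini-Hochberg over all genes tested) and DESeq2 1.42.0 as an alternative, after a test on simulated data. A gene is called at an adjusted p under 0.05. Source names give the donor behind each replicate number. After removal of group means, the 18 same-numbered pairs correlated at 0.608 to 0.863 across 11568 genes, the 36 other pairs at -0.549 to -0.168. Once group means are removed, negative values of the other pairs follow from positive ones of the same-numbered pairs and add no separate information. Replicates are single cultures of 3 donors.

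Members and gene lists were chosen with earlier results of these data known, and medians and counts over them carry no test. Described in full were 21 members: the 2 with most reads per role group, and in each comparison the 3 highest and 3 lowest log2 fold changes. From other lists, the 2 largest called changes in each direction were named. Within-donor differences are of log2(CPM + 1). Promoter and protein sequences were not used here.

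Alternatives were the fit without the block, relative log expression scaling, DESeq2, no filter on low counts, at least 10 counts in every library, dispersion from all 12 libraries, the other or both sets as control, each donor left out, and for within-donor medians a pseudocount of 0.1 CPM or TMM scaling. Leaving out single libraries without the block was chosen after seeing the data.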

Additional observations from a re-analysis of the deposited data

Results flagged for a closer look

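MYBL2, which encodes B-MYB, was picked out because its responses to low and to supra-high shear stress differed by the test of the difference itself. The change at 2 dyne/cm2 minus that at 80 dyne/cm2 was -1.41 on the log2 scale (SE 0.465, adjusted p 0.0392 in edgeR's quasi-likelihood test with the donor block), and it was below 0 in 3 of 3 donors, in donor 2 by 0.056 only. Over the alternatives the edgeR adjusted p ranged from 0.0321 to 0.158, and it was 0.00471 in DESeq2. The median difference of the 38 tested members was -0.48. Slide and seeding density, which by the design text differ between the 2 responses, cannot be told apart from shear stress here.

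The median difference of the members between 80 dyne/cm2 and set 2 was picked out because the donors moved in opposite directions, at 0.43 in donor 1, -0.86 in donor 2 and -0.51 in donor 3. Each donor had 1 culture per condition, so this difference between donors was not tested. When each member was first averaged over the 3 donors, the median over the members was -0.31, and with set 1 as the control it was -0.38. By the design text, set 1 was on another slide and seeded less densely.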

How the results depend on the processing

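Of 38 members tested, 0 were called lower at 2 vs. 30 dyne/cm2, against 19 with DESeq2, 13 with dispersion from all 12 libraries, 29 with set 2 as the control, 26 with both sets, 1 to 3 without a donor and 4 without the replicate block and donor 2 of set 1. By the design text, set 2 differs from the low cultures in slide and seeding density too. Without the block alone 0 were called and the median was -0.79. At 80 dyne/cm2 the count was 0, or 0 to 35 without a donor, and the median without the block was -0.19, or 0.10 without it and donor 2 at 80 dyne/cm2. For set 2 vs. set 1 the block changed no call of a member (median -0.15 without it), and the median ranged from -0.27 to 0.13 without a donor, and within donors from -0.24 to 0.12. For the difference between responses the count was 1, against 0 without the block, 3 with DESeq2 (BUB1, ANLN and MYBL2) and 0 to 2 without a donor. Over all genes, 4294 were called for it, against 1746 without the block, 4544 with DESeq2 and 1949 to 3299 without a donor. The cause of these shifts was not tested.

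The log2 fold change of some genes turned sign. At 80 dyne/cm2 this was so without the block for PLK1 (0.13) and GTSE1 (0.10), with dispersion from all 12 libraries for GTSE1 (0.030) and with set 1 as the control for BUB1 (-0.015).
Without each donor in turn, the values at 80 dyne/cm2 ranged from -0.16 to 0.31 for BUB1, -0.53 to 0.093 for CCNB1, -0.52 to 0.17 for PLK1, -0.52 to 0.087 for KIF20A, -0.53 to 0.054 for ANLN, -0.62 to 0.017 for UBE2C, -0.48 to 0.096 for KIF18A, -0.55 to 0.026 for SMC4 and -0.43 to 0.20 for GTSE1. For set 2 vs. set 1 they ranged from -0.035 to 0.30 for KIF11, -0.56 to 0.016 for MYBL2, -0.38 to 0.034 for CCNB1 and -0.47 to 0.03 for UBE2C. None of these passed the test in the fit reported. Of the values recomputed for single genes, no sign turned at 2 dyne/cm2 or in the difference between responses.

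Over all genes tested, 2895 were called at 2 dyne/cm2, against 1244 without the block, 3325 with DESeq2 and 4505 with dispersion from all 12 libraries. With set 2 as the control the count there was 2769, and with both sets 4252. At 80 dyne/cm2 940 were called, against 0 without the block, 364 with dispersion from all 12 libraries, 26 with set 1 and 328 with both sets as the control. Without donor 1 it was 2042. For set 2 vs. set 1 the counts were 2, 476 with DESeq2 and 161 with no filter, and for the difference 4294 and 1746 without the block. With 3 donors and 1 culture of each per condition, a fit without a donor rests on 2 pairs, and 6 to 40 counts limit what CDC20 can show.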
